A study of Mus musculus with 10 samples.

Results

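Obp1a, Obp2a, Obp2b, Lcn3, Lcn4 and Lcn11 are 6 genes of the lipocalin family that were read as single genes in RNA-seq of the mouse main olfactory epithelium (MOE), the tissue of the nasal cavity that holds the olfactory sensory neurons and the glands beneath them. They were 6 of 24421 rows in the count table, and all 6 were among the 17197 genes with enough counts to be tested. The genes were chosen by measured values, namely their levels in the homozygous libraries against the others and the way they varied between libraries. Contrasts with the homozygous libraries and correlations between the genes are therefore given as descriptions without a test, and only heterozygous against wild-type mice was tested.

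The mice were labelled C57BL/6 and were at postnatal day 14, while the study's reporting summary puts its mouse lines on a mixed background of C57BL/6J and 129. They were described as littermates and differed in whether TAAR enhancers 1 and 2, a pair of elements in the cluster of trace amine-associated receptor (Taar) genes, were deleted. There were 3 wild-type (WT) libraries with both enhancers intact, 3 heterozygous (het) libraries with both enhancers deleted on a single allele, and 4 homozygous (homo) libraries with both deleted on each allele. The deletions were made with CRISPR-Cas9 in zygotes, and a single double knockout line was kept, so any other change fixed in that line cannot be told apart from the deletions. The enhancers were absent from every cell of the homo mice rather than from a chosen cell type.

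Lipocalins are small proteins, mostly secreted, that fold into a barrel with a pocket for hydrophobic ligands. Odorant-binding proteins are lipocalins that nasal glands release into the mucus, where they can carry odorants and other small molecules. Lcn3 and Lcn4 were first described as vomeronasal secretory proteins, made by glands of the vomeronasal organ and the nasal septum. Obp2a and Obp2b are also known as Lcn13 and Lcn14.

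Of the 6 genes, 5 lie on chromosome 2 and 1 on the X chromosome (mm10, GENCODE release M21, 1-based positions). Obp2a (25700043 to 25703326), Obp2b (25737009 to 25740097), Lcn3 (25765569 to 25768099) and Lcn11 (25777017 to 25780279) stand on the plus strand within 80.2 kb of chromosome 2, and Lcn11 starts 8.92 kb after the end of Lcn3. Lcn4 (26667674 to 26671282) is 887.4 kb farther along the same chromosome, on the minus strand. Obp1a spans 78085505 to 78091374 of the X chromosome, on the minus strand. Each gene has 7 annotated exons except Lcn11, which has 6, and the annotated transcripts are 652 to 774 bases long.

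The 100 bases before the annotated starts are shown because the genes that moved together did not all share the same upstream sequence. They were taken from the RefSeq promoter table (GRCm38.p6) and read 5′ to 3′ on the strand of the gene, with every TATAAA in capitals. The stretches are chrX:78091375-78091474 (minus strand) for Obp1a, chr2:25699943-25700042 (plus) for Obp2a, chr2:25736907-25737006 (plus) for Obp2b, chr2:25765433-25765532 (plus) for Lcn3, chr2:26671283-26671382 (minus) for Lcn4 and chr2:25776917-25777016 (plus) for Lcn11.
Obp1a: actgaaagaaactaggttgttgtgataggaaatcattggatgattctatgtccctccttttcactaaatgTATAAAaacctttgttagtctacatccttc
Obp2a: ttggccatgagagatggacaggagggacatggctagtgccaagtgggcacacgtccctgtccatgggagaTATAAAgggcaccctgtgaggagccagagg
Obp2b: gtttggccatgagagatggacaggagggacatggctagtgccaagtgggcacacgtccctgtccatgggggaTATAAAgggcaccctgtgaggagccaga
Lcn3: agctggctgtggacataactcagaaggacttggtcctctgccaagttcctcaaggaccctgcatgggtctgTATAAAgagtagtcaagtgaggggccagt
Lcn4: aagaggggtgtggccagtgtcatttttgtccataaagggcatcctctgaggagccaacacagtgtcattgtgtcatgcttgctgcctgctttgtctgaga
Lcn11: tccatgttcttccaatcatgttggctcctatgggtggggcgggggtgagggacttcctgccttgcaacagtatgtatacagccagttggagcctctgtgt

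The 250 bases upstream of each gene were searched on both strands for short motifs, against the same stretch of 32544 RefSeq promoters. TATAAA, the core of a TATA box, was found in 4 of the 6 genes (Obp1a, Obp2a, Obp2b and Lcn3), 28 to 30 bases before the first annotated start, and in 12.3% of all promoters. Obp2a and Obp2b were nearly the same in the 100 bases shown, and their longest shared run within the 250 bases was 125 bases. Lcn4 had no TATAAA, but the run ATAAAGGGCA, which overlaps the TATAAA of Obp2a and Obp2b, was shared by Obp2a, Obp2b and Lcn4 and occurred in 22 promoters (0.0676%). This run was picked because the 3 genes share it, so its rarity is a description of the picked letters. TGTTCT, the better conserved side of steroid receptor elements, was in Obp1a and Lcn11 and in 16.0% of all promoters. CCCNNGGG, the core of the site of EBF factors, which act in olfactory neurons and other cells, was in Obp2b alone of the 6 and in 11.9% of all promoters.

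Obp2a and Obp2b could not be fully separated by their reads. Their transcripts were 73.6% identical, with a shared run of 130 bases, and 11.7% of the 50-base windows of Obp2a and 11.9% of those of Obp2b occurred in the other gene. Of the Obp1a windows, 7.20% also occurred in Gm5938, its neighbour on the X chromosome. Lcn3, Lcn4 and Lcn11 shared no 50-base window with another annotated transcript. How reads with several alignments were counted is not given in the sources used here, so the counts of Obp2a and Obp2b are uncertain as single genes.

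Depth ranged from 21423861 to 27712948 counts per library, and levels are given as CPM, the counts of a gene scaled to a library total of 1000000. The 14 olfactory Taar genes summed to 34.2 to 36.7 CPM in WT, 30.9 to 36.3 CPM in het and 0.0934 to 0.221 CPM in homo libraries, as the labels imply. Markers of mature olfactory sensory neurons summed to 9456 to 11300 CPM over the 10 libraries. Labels of sex or batch were not given, and Y-linked genes had at least 5252 counts in 4 libraries (homo-2, homo-3, WT-1 and het-1) and at most 3 in the other 6.

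The 6 genes together made up 0.366% (het-3) to 1.59% (homo-2) of all counts in a library. Their sum was 6795 ± 2272 CPM (SD, n = 3) in WT, 6140 ± 2273 CPM (n = 3) in het and 11660 ± 4590 CPM (n = 4) in homo libraries. The homo libraries did not stand clear of the rest on this sum, since homo-3 (8528 CPM) and homo-4 (6930 CPM) lay below WT-2 (9037 CPM). In bulk tissue, a change in the number of secreting cells and a change in the RNA per cell cannot be told apart.

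**Figure D1:**
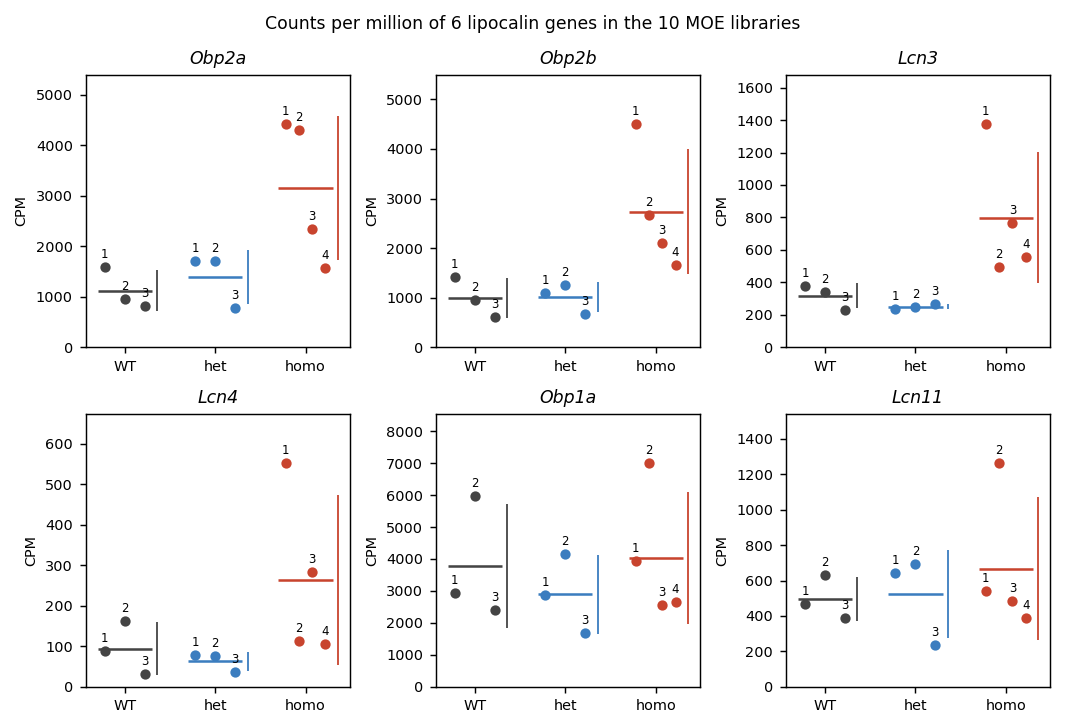
CPM (vertical axis, starting at 0) of each of the 6 genes in the 10 libraries by genotype, with replicate numbers beside the points, the group mean as a horizontal line and ± 1 SD as a vertical line (n = 3 WT, 3 het, 4 homo). Obp2b and Lcn3 lie higher in all 4 homo libraries than in every WT and het library, homo-1 tops Obp2a, Obp2b, Lcn3 and Lcn4, and homo-2 tops Obp1a and Lcn11.

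Obp2a, Obp2b, Lcn3 and Lcn4 were 2.28 to 4.17 times as high in homo as in het or WT libraries by the fitted group means, while for Obp1a and Lcn11 the fitted differences were smaller than their standard errors. Levels are given first for the odorant-binding proteins of chromosome 2 and then for the former vomeronasal secretory proteins.

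Obp2a was at 1581, 965 and 822 CPM in WT-1, WT-2 and WT-3, and at 1702, 1701 and 777 CPM in the 3 het libraries. In homo-1 to homo-4 it was at 4422, 4301, 2338 and 1573 CPM. The other homo libraries were above all WT and het libraries, and homo-4 fell inside their range, just under WT-1. The means were 1123 ± 403 CPM in WT, 1393 ± 534 in het and 3159 ± 1424 in homo libraries. The fitted log2 fold change was 1.50 ± 0.50 (SE) for homo against WT, or 2.84 times the WT level, and 1.19 ± 0.49 for homo against het.

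Obp2b was at 1415, 952 and 607 CPM in the WT and at 1102, 1264 and 671 CPM in the het libraries. In the homo libraries it was at 4508, 2676, 2114 and 1657 CPM. Every homo library was above every WT and het library. Means were 991 ± 406, 1012 ± 306 and 2739 ± 1251 CPM in WT, het and homo libraries, and the log2 fold change was 1.48 ± 0.46 against WT (2.78 times) and 1.45 ± 0.46 against het (2.72 times).

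Lcn3 was at 379, 342 and 231 CPM in the WT and at 236, 248 and 269 CPM in the het libraries, the narrowest range in fold of any of the 6 genes within a genotype. It reached 1377, 493, 767 and 554 CPM in homo-1 to homo-4, again without overlap with the other 6 libraries. The means were 317 ± 76.8, 251 ± 17.0 and 798 ± 404 CPM. The log2 fold change was 1.34 ± 0.37 against WT (2.53 times) and 1.68 ± 0.38 against het (3.20 times).

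Lcn4 was the lowest and the most variable of the 6, with an 18.1-fold range over the libraries. It was at 88.5, 162 and 30.5 CPM in the WT, at 78.3, 75.6 and 36.5 CPM in the het and at 552, 112, 282 and 105 CPM in the homo libraries. All homo libraries were above all het libraries, and WT-2 alone of the WT libraries reached into the homo range. With means of 93.6 ± 65.7, 63.5 ± 23.4 and 263 ± 209 CPM, the log2 fold change was 1.50 ± 0.81 against WT and 2.06 ± 0.83 against het (4.17 times).

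Obp1a, the X-linked odorant-binding protein, was at 2922, 5985 and 2416 CPM in WT, at 2865, 4146 and 1672 CPM in het and at 3933, 7002, 2544 and 2654 CPM in homo libraries. It was among the 3rd to 27th highest genes of a library. The genotypes overlapped over most of their range, with means of 3774 ± 1931, 2894 ± 1238 and 4033 ± 2077 CPM. The log2 fold change was 0.11 ± 0.53 against WT and 0.49 ± 0.53 against het, smaller than its standard error in each contrast.

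Lcn11, a little-studied lipocalin next to Lcn3, was at 469, 632 and 388 CPM in WT, at 643, 695 and 238 CPM in het and at 539, 1264, 482 and 387 CPM in homo libraries. Only homo-2 stood above the WT and het libraries, and homo-4 was at the level of the lowest WT library. The means were 496 ± 124, 525 ± 250 and 668 ± 402 CPM, and the log2 fold change was 0.44 ± 0.54 against WT and 0.36 ± 0.54 against het.

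**Figure D2:**
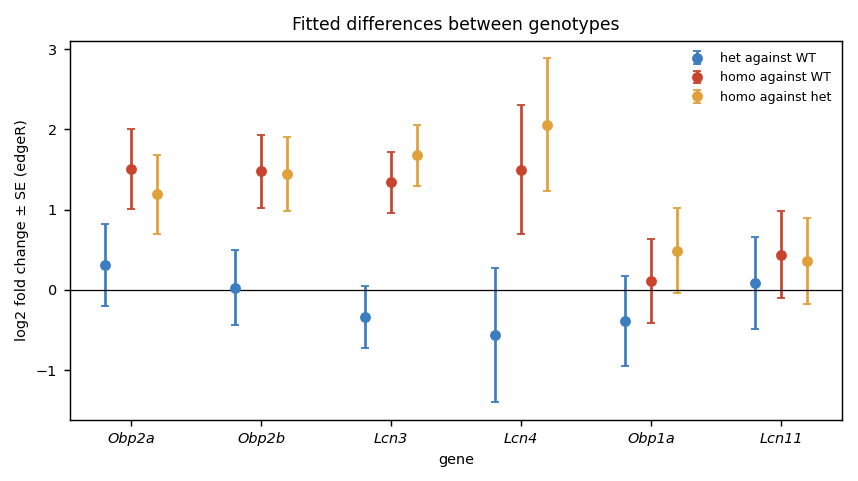
Fitted log2 fold change (vertical axis) of the 6 genes for het against WT, homo against WT and homo against het, with bars of ± 1 standard error of the edgeR fit to 3 WT, 3 het and 4 homo libraries. Obp2a, Obp2b, Lcn3 and Lcn4 lie between 1.19 and 2.06 in the homo contrasts, Obp1a and Lcn11 between 0.11 and 0.49, and all 6 lie between -0.56 and 0.31 in het against WT.

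Every homo library was above every WT and het library for 2 of the 6 genes, Obp2b and Lcn3, and for 0.349% of the 17197 genes tested. Against WT alone the same 2 genes met this, beside 1.70% of all genes, and against het alone Lcn4 joined them, beside 2.04%. In edgeR's quasi-likelihood fit over all genes, with Benjamini-Hochberg adjustment, 12 genes (0.0698%) were called for homo against WT, all of them Taar genes that were lower, and 13 (0.0756%) for homo against het, the same Taar genes and Bglap3. The 6 lipocalin genes were not among them, and since these contrasts chose the 6 genes, nothing is read from this or from overlap between groups.

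Single libraries carried much of the homo levels. Without homo-1, the log2 fold change against WT went from 1.34 to 0.93 for Lcn3, from 1.48 to 1.12 for Obp2b, from 1.50 to 1.29 for Obp2a and from 1.50 to 0.83 for Lcn4. Without homo-2, it went from 0.11 to -0.31 for Obp1a and from 0.44 to -0.085 for Lcn11, so Lcn11 was below WT only without that library. Obp1a also fell below WT without WT-1 (-0.049) or WT-3 (-0.14) and was at 0.60 without WT-2, so its sign depended on the libraries kept. Leaving out WT-2, which had the highest Lcn4 of the WT libraries, raised the Lcn4 value to 2.15 and put every remaining WT and het library below the homo libraries. Without homo-4, Obp2a no longer overlapped either.

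Within the libraries that held Y-linked counts (2 homo, 1 WT and 1 het) and within those that did not (2 homo, 2 WT and 2 het), Obp2a, Obp2b, Lcn3 and Lcn4 were higher on average in homo libraries. For Lcn3 the homo mean was 2.05 times that of the other libraries in the first set and 3.54 times in the second. The ratios were 1.90 and 3.53 for Obp2b, 2.02 and 2.81 for Obp2a, and 2.37 and 4.32 for Lcn4. In the second set, which holds homo-1, the ranges overlapped for Obp2a (lowest homo 1573, highest other 1701 CPM) and Lcn4 (105 and 162 CPM). They did not overlap there for Obp2b or Lcn3. As the genes were chosen on their homo values, these ratios are descriptions. For Obp1a (1.65 and 0.927) and Lcn11 (1.57 and 0.949) the homo mean was higher in the first set and slightly lower in the second.

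Whether a single deleted allele changed these genes was tested in het against WT, and no change was detected. edgeR called 0 of the 6 genes and 0 of 17197 genes in all (0%), with 0 of the 6 and 330 of all genes at an unadjusted p under 0.05, and DESeq2 and limma called none of the 6 either. The log2 fold changes were 0.31 ± 0.51 (SE) for Obp2a, 0.030 ± 0.47 for Obp2b, -0.34 ± 0.39 for Lcn3, -0.56 ± 0.84 for Lcn4, -0.38 ± 0.56 for Obp1a and 0.084 ± 0.57 for Lcn11. Each gene had an adjusted p of 0.9996 in edgeR, and 0.743 (Obp1a) was the smallest over all alternatives. The 95% intervals were wide, and ran from -1.23 to 0.55 for Lcn3, from -1.07 to 1.13 for Obp2b, from -0.89 to 1.51 for Obp2a and from -2.53 to 1.41 for Lcn4.

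The spread of the 6 genes between libraries of the same genotype was large, and as variation between libraries was part of how they were chosen, it is given as a description. The pooled within-genotype SD of log2 CPM was 0.49 for Lcn3, 0.59 for Obp2b, 0.66 for Obp2a, 0.69 for Obp1a, 0.71 for Lcn11 and 1.06 for Lcn4. Over the 5171 genes with a mean of at least 50 CPM the median was 0.13, and 0.116% (for Lcn4) to 0.542% (for Lcn3) of them had an SD at least as large.

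Per length of transcript, Obp1a was the highest of the 6 and Lcn4 the lowest in each genotype. In WT libraries the levels per kb were 4986 ± 2551 CPM for Obp1a, 1509 ± 542 for Obp2a, 1354 ± 554 for Obp2b, 761 ± 191 for Lcn11, 464 ± 112 for Lcn3 and 121 ± 84.9 for Lcn4. The het libraries had the same order. In homo libraries Lcn3 (1166 ± 591 CPM per kb) was above Lcn11 (1025 ± 617), while Obp1a (5328 ± 2744), Obp2a (4245 ± 1914) and Obp2b (3742 ± 1709) lay within an SD of each other. Neighbours in the order were not always separate, since Obp2a was above Obp2b in 7 of 10 libraries and Lcn11 above Lcn3 in 6, whereas Obp2b was above Lcn11 and Lcn3 above Lcn4 in all 10.

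Across the 10 libraries Obp2a, Obp2b, Lcn3 and Lcn4 had r of 0.729 to 0.955 with one another, and Obp1a and Lcn11 had r of 0.895. Correlations are Pearson r of log2 CPM over 10 libraries, which share depth and tissue composition between the genes compared. Of the 15 pairs, 5 had r over 0.8, and after each genotype's mean was taken out 3 did, namely Obp2a with Obp2b, Lcn3 with Lcn4 and Obp1a with Lcn11. The pooled values of Obp2a, Obp2b, Lcn3 and Lcn4 thus rest in part on the homo difference by which the genes were chosen.

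Obp2a and Obp2b correlated with r = 0.955 (Spearman rho 0.867), r = 0.926 without the 2 farthest libraries, and r = 0.908 within genotypes. Their shared sequence bears on this value, as reads from either gene can match the other, and its part was not tested. The ratio of Obp2b to Obp2a stayed between 0.622 and 1.05 while each gene ranged over 5.69-fold (Obp2a) and 7.43-fold (Obp2b).

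Lcn3 and Lcn4 correlated with r = 0.889 (rho 0.867), and with r = 0.823 within genotypes, although they are far apart on chromosome 2 and share no 50-base window. Without the 2 farthest libraries r was 0.632. Lcn4 was the steeper of the pair, and its ratio to Lcn3 ranged from 0.132 to 0.474. Obp2b correlated with Lcn3 at 0.888 (rho 0.867) and with Lcn4 at 0.858 (rho 0.782). Much of the Obp2b and Lcn3 value lay between genotypes, since it was 0.684 within genotypes and 0.350 there without the 2 farthest libraries.

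Obp1a and Lcn11, on different chromosomes, correlated with r = 0.895 (rho 0.830), and within genotypes with r = 0.910. Without the 2 farthest libraries the within-genotype value was 0.883. For both genes the library numbered 2 was the highest in each of the 3 genotypes, a pattern found in 7.66% of all genes. Lcn3 and Lcn11 had r = 0.139 (rho -0.030) and -0.16 within genotypes, although the genes are neighbours. Obp1a and Lcn3 had r = 0.213, and -0.015 within genotypes. Over all libraries Obp2a had r = 0.663 to Lcn11 and 0.529 to Obp1a. Within genotypes these were 0.753 and 0.639, above its values to Lcn4 (0.512) and Lcn3 (0.377).

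**Figure D3:**
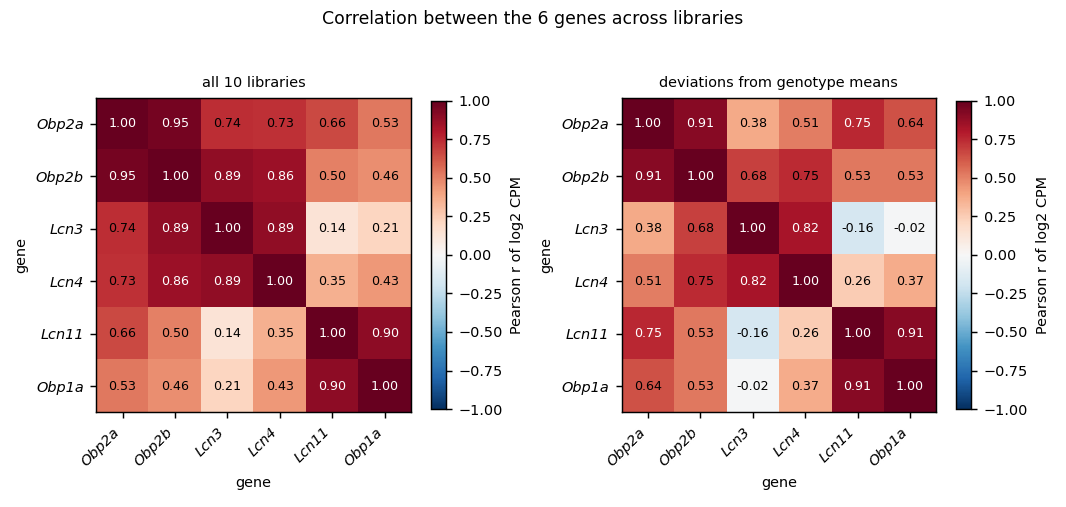
Pearson r of log2 CPM between the 6 genes (rows and columns) over all 10 libraries at left and for deviations from the genotype means at right, on a color scale from -1 to 1. Obp2a with Obp2b (0.955) and Obp1a with Lcn11 (0.895) are high in both panels, and Obp2a with Lcn3 goes from 0.739 to 0.377.

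**Figure D4:**
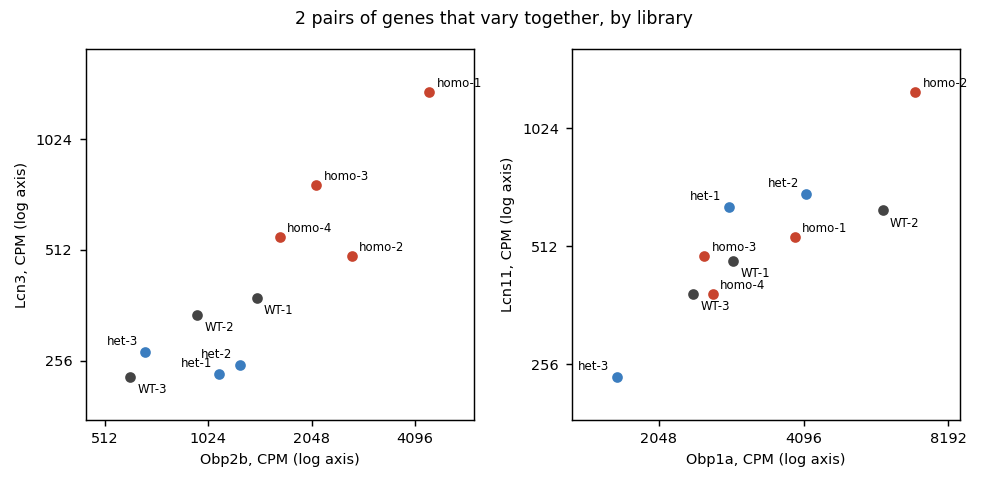
CPM of Lcn3 against Obp2b (left) and of Lcn11 against Obp1a (right), 1 point per library, both axes logarithmic, colored by genotype (WT black, het blue, homo red). At left the 4 homo libraries lie above and to the right of the other 6, and at right the genotypes are mixed, with homo-2 highest and het-3 lowest.

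The genes most like Obp1a over the 10 libraries were its neighbours on the X chromosome. 5430402E10Rik (r = 0.983), Gm14744 (0.971) and Gm14743 (0.962) lie with Obp1a in a stretch of 381.2 kb that also holds Gm5938 and Obp1b. Obp1b had no row in the count table, and its transcript is 99.3% identical to that of Gm14743, so Gm14743 is uncertain as a single gene. Gm14744 was at 3919, 6702 and 2702 CPM in WT, 4250, 6064 and 1770 CPM in het and 4516, 8864, 3292 and 3191 CPM in homo libraries, which is the order of Obp1a within each of WT and het. The genes most like Lcn11 were Zfp106 (0.962), Setd2 (0.957) and Plcb4 (0.953).

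For the other 4 genes, the most alike were P2rx1 (0.962), Gpd1 (0.948) and Asns (0.947) for Obp2a, BC048546 (0.967), Dmbt1 (0.962) and Gcnt4 (0.939) for Obp2b, Dmbt1 (0.939), Rftn2 (0.906) and BC048546 (0.901) for Lcn3, and Kcnj10 (0.984), Tmem132b (0.960) and Lpar1 (0.949) for Lcn4. P2rx1 and Gcnt4 were at a mean of only 0.474 and 0.617 CPM. These r values were the highest of 17197 genes over 10 libraries, and they hold no test.

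BC048546 was among the 20 genes most like Obp2a, Obp2b, Lcn3 and Lcn4, and Dmbt1 and Bglap3 among those of Obp2a, Obp2b and Lcn3. Dmbt1, a secreted mucosal glycoprotein on chromosome 7, was at 202, 154 and 110 CPM in WT, 170, 152 and 110 CPM in het and 837, 386, 342 and 393 CPM in homo libraries. BC048546 was at 331, 303 and 256 CPM in WT, 379, 337 and 244 CPM in het and 930, 519, 519 and 422 CPM in homo libraries. Both genes, like Obp2b and Lcn3 and 0.349% of all genes tested, were higher in each homo library than in any other library, with homo-1 at the top. They were picked for their likeness to genes chosen on the homo libraries, so nothing is read from this. Neither was called, with an edgeR adjusted p of 0.9993 for homo against het. Bglap3, which codes for a protein of the osteocalcin family and has near-identical copies, was higher in homo than in het libraries by 0.98 ± 0.17 on the log2 scale (edgeR adjusted p = 0.0394), and against WT by 0.71 ± 0.17, which was not called (edgeR adjusted p = 0.757). It is named here for its likeness to genes chosen on the homo libraries, so its call is not independent of that choice.

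Of 27 other lipocalins, 23 were in the table and 9 had enough counts to be tested, and none was called in any contrast. The median log2 fold change of the 9 was -0.058 for het against WT, 0.32 for homo against WT and 0.35 for homo against het, where all genes had a median of about 0 (-0.00089, 0.00011 and -0.00097), and all 9 were above 0 in both homo contrasts. Mup4 and Mup5, major urinary proteins with close copies in the genome, spread widely, with Mup4 at 670, 916 and 523 CPM in WT, 866, 1587 and 227 CPM in het and 576, 3293, 312 and 333 CPM in homo libraries. Mup5 was at 1584 and 1815 CPM in homo-1 and homo-2 and at 268 to 1415 CPM in the other 8. Apod, which carries small lipids, and Ptgds, the lipocalin-type prostaglandin D synthase, were level by comparison, at 484 to 678 CPM and 58.1 to 113 CPM. For homo against WT, Mup4 (0.70 ± 1.04), Mup5 (0.46 ± 0.80), Apod (0.013 ± 0.12) and Ptgds (0.039 ± 0.21) were inside their standard errors. The list did not hold 5430402E10Rik, Gm14743 or Gm14744, the X-linked genes most like Obp1a. For homo against WT they were at -0.049 ± 0.55, -0.045 ± 0.58 and 0.17 ± 0.57, and against het at 0.44, 0.56 and 0.31.

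Of 28 other listed products of nasal secretion 26 were tested and none was called. The medians were -0.060, 0.045 and 0.11 for het against WT, homo against WT and homo against het, with 8, 13 and 22 of the 26 genes above 0. Dmbt1, described above, belongs to this list, at 1.67 ± 0.39 against WT and 1.77 ± 0.39 against het. Their 4 highest genes belong to the BPI fold family of secreted lipid-binding proteins. Bpifa1 (3316 to 4485 CPM) and Bpifb4 (2476 to 3736 CPM) were nearly level over the 10 libraries. Bpifb9b (6477 to 18170 CPM) and Bpifb9a (1611 to 4514 CPM) were highest in homo-2, the library that also led Obp1a and Lcn11.

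As a list, markers of gland epithelium moved little beside the lipocalins. The 13 gland epithelium genes had medians of 0.013, 0.074 and 0.072 in the 3 contrasts, none called. Their summed level was 2176 to 2389 CPM in WT, 2217 to 2566 in het and 2113 to 2512 in homo libraries. Gpx6 (mean 1007 CPM) and Slc12a2 (588 CPM) weighed most in that sum. In each homo contrast 9 of the 13 were above 0 and 4 below. Chrm3 was at 0.55 ± 0.24 against WT and 0.22 ± 0.24 against het, and Spdef at 0.34 ± 0.15 and 0.35 ± 0.15. Ehf, picked for its likeness, had r of 0.939 with Obp1a and 0.933 with Lcn11. The 9 supporting cell markers summed to 14860 to 15830, 15620 to 16980 and 14560 to 17170 CPM, with 0 called and medians of 0.10, 0.028 and -0.068. For vomeronasal neurons, 3 of 7 markers were tested with 0 called, and the list summed to 3.60 to 4.78, 3.33 to 3.74 and 3.59 to 5.13 CPM, most of it Calr4. Trpc2, the channel that defines these neurons, was at 0 in 9 libraries and at 1 count in the other. The list holds no marker of vomeronasal gland cells, whose part was not tested.

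Of the other cell type lists, bone alone held a called gene. The medians for homo against WT and homo against het were -0.026 and -0.014 for mature olfactory sensory neurons (10 genes), -0.065 and 0.012 for basal cells (6), 0.041 and 0.00062 for respiratory ciliated cells (7) and -0.62 and 0.0058 for neutrophils and marrow (6 of 8 tested). The single tested red cell gene was at -0.55 and -0.50. The 8 bone genes had medians of 0.020 and 0.23, with 4 above 0 for homo against WT and all 8 for homo against het. For het against WT 1 of the 8 was above 0. Bglap3 was the 1 called higher in homo than in het. The bone list summed to 3325 to 5736 CPM in WT, 2876 to 4697 in het and 4261 to 5267 in homo libraries. The part of bone or other tissue in the lipocalin levels was not tested.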

How the data were processed

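RNA of the whole MOE was sequenced in 10 libraries after poly(A) selection with a directional kit, with genotype and replicate number read from the titles. The authors trimmed reads with Trimmomatic 0.36, aligned them to mm10 with HISAT2 2.1.0 and counted them with featureCounts (Subread 1.6.2), per the labels. The annotation, strand setting and treatment of reads with several alignments are not given in the sources used here. The deposited raw counts (24421 rows) were used. The authors also deposited normalized counts (23129 rows), a signal in which each count was divided by a DESeq2 1.20.0 size factor, and these served as an alternative. No column was left without a sample (0 unmapped).

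The test was edgeR 4.0.16 under R 4.3.3 (filterByExpr, TMM, robust quasi-likelihood fit of genotype to all 10 libraries), two-sided, with Benjamini-Hochberg adjustment over 17197 genes. An adjusted p under 0.05 was a call. DESeq2 1.42.0 and limma 3.58.1 (log2 of normalized counts plus 1) were alternatives. On simulated data for homo against WT with 200 genes changed, 85.5% of 2-fold changes were recovered among 17052 genes, with 7 unchanged genes called, and 95.5% of 4-fold changes among 17074 genes, with 16 unchanged genes called. The changed genes were drawn at random from all genes. The 6 genes had a within-genotype SD of 0.49 to 1.06, against a median of 0.13 for genes of at least 50 CPM. These rates therefore do not apply to the 6 genes or to het against WT. Correlations used log2 CPM with a prior count of 2. The study gives the libraries as those of littermates, and p-values measure the spread between these libraries.

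The 6 genes and the lists (other lipocalins, nasal secretory products, gland epithelium, supporting cells, mature olfactory sensory neurons, basal cells, respiratory ciliated cells, vomeronasal neurons, neutrophils and marrow, red cells, bone, olfactory Taar genes) were chosen with earlier results of these data known. Named were the 6 genes, called genes of each list or otherwise at most 4 with the highest mean CPM, the 3 genes most correlated with each of the 6, and genes among the top 20 of at least 3 of them. Trpc2 was named as a defining marker, and Gm5938 and Obp1b for sequence shared with named genes. Of the gland list, Chrm3 and Spdef were named for the largest homo differences and Ehf for its likeness to Obp1a and Lcn11. Same-numbered WT and het libraries deviated together over all genes (r = 0.326, 0.285 and 0.235), while homo libraries did not follow the numbers (r from -0.15 to 0.16).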

Additional observations from a re-analysis of the deposited data

How the results depend on the processing

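For the 6 genes, the 3 contrasts, the counts of calls and the gene pairs, 660 values were recomputed under other settings, and 634 did not change by the rule for their kind. For het against WT that rule was direction and call. The homo contrasts had no test, so their values were only held against the spread between replicates, and their sign turned for Obp1a against WT (-0.049, -0.14 and -0.31 without WT-1, WT-3 and homo-2) and for Lcn11 (-0.085 against WT and -0.17 against het without homo-2). The calls of the 6 genes in the homo contrasts are counts and no test, since those contrasts chose them. A block for the replicate number tied same-numbered WT, het and homo libraries, although homo libraries did not follow the numbers (r from -0.15 to 0.16). It gave 19 called genes for homo against WT (2 of the 6: Obp2a and Obp2b) and 24 for homo against het (3 of the 6: Obp1a, Obp2a and Obp2b). It changed no call of the 6 genes for het against WT. Number 4 exists only in homo-4, so the block left that library out of the homo contrasts. Among homo libraries, homo-4 was the lowest for Obp2a (1573 CPM) and Obp2b (1657 CPM). For homo against WT the block gave 1.72 for Obp2a and 1.68 for Obp2b, beside 1.73 and 1.66 without homo-4. Leaving out homo-4 with no block gave 12 called genes for homo against WT and 13 for homo against het, 0 of the 6 in each. What lay behind the calls under the block was not tested. In WT and het libraries alone, an alternative added after the data were seen, the block gave 3 called genes, none of the 6. DESeq2 called 1 of the 6, Lcn3, for homo against het. Leaving out a library gave 0 to 1 of the 6 called for homo against het (Lcn3 without homo-1).

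For het against WT, Lcn11 (0.084) was at -0.038 with limma, -0.015 under the block, and -0.033 under the block when homo libraries were left out. Leaving out a library moved Lcn11 between -0.17 and 0.44, Obp2b between -0.23 and 0.38, Obp1a between -0.74 and 0.12 (positive without WT-2) and Lcn4 between -0.98 and 0.089 (positive without WT-2). With individual libraries left out, Lcn11 was at -0.071 without WT-3, -0.089 without het-1 and -0.17 without het-2, and Obp2b was at -0.23, -0.037 and -0.17 in the same order. Pairs with r over 0.8 numbered 3 by deviations from genotype means and 2 (without homo-1) to 7 with a library left out. The causes were not tested. The lowest count behind a level of the 6 genes was 706 (Lcn4 in WT-3).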
